A study of Homo sapiens with 26 samples.

Results

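The 10 genes described here carry chloride, other anions or water across epithelial membranes by routes other than CFTR: ANO1, ANO6, SLC12A2, SLC4A2, SLC26A6, CLCN2, CLCN3, LRRC8A, GABRP and AQP3. They were taken by gene name, with no threshold on their values, from a table of 58735 genes, and all 10 were found. RNA was sequenced in bulk from 16HBE cells, an immortalised human bronchial epithelial line that forms a tight polarized layer on porous supports. Of 26 libraries, 6 came from CF cells in high glucose, 6 from CF cells in normal glucose, 5 from WT cells in high glucose, 6 from WT cells in normal glucose, and 3 from WT cells that, per the labels, were in normal glucose and not polarized. CF cells were the gene-edited line 16HBEge with DeltaF508 CFTR, the commonest cystic fibrosis allele, and WT cells were 16HBE14o- with WT CFTR, so genotype and line cannot be told apart. High glucose was 17.5 mM and normal glucose 5.5 mM for 7 days, and each sample pooled 2 Transwells. The labels do not say whether each library was grown as its own culture, and the p-values reflect only how much these samples vary, and that may be technical.

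Fluid secretion by airway epithelium runs on chloride. A cotransporter on the basolateral side, SLC12A2, loads the cell with chloride, channels on the apical side release it, and water follows the ions through the cells and between them. Anion exchangers swap chloride for bicarbonate, which sets the pH of the surface liquid. When CFTR, the main apical anion channel, is mutated as in cystic fibrosis, calcium-activated and other channels remain as alternative exits, and airway glucose is known to be raised in people with cystic fibrosis-related diabetes.

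The epithelial identity of the cells was seen in their transcripts. All 5 epithelial markers (EPCAM, CDH1, KRT8, KRT18, KRT19) exceeded 1 CPM (counts scaled to TMM-adjusted library size) in each group, summing to 4750 to 6500 CPM per library. Of 5 secretory and goblet cell markers and 3 leukocyte markers, 0 reached a mean of 1 CPM in any group. CFTR, given for reference, lay between 583.7 and 868.3 CPM in all 26 libraries. A deletion within codons is not visible in gene totals, so these values do not check the genotype. Library totals ran from 14658319 to 20413839 counts. Within each glucose group each library's counts differed less from those of its own number set, 1 to 3 or 4 to 6, than from those of the other, except that library 2 of CF cells in normal glucose was nearer to library 4 than to library 3 (chi-square per degree of freedom of 10.5 and 12.6). The labels do not say what the numbers mark. Values within each number set are therefore given beside the results of the 10 genes that they touch.

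Of the 6 genes called with glucose or between lines, the sequence before a RefSeq start site is shown for the 4 with the largest fold changes there, so that the results can be read beside it. The stretches are from RefSeq on GRCh38.p14, run 5′ to 3′ on the gene's own strand, begin 250 bases before the start site and end at the first base that GENCODE release 29 annotates as an exon. RefSeq promoters were matched for all 10 genes, with 16 start sites in total, and 4 stretches are shown. Capitals mark matches on either strand to the hypoxia response cores ACGTG and GCGTG, the E-box CACGTG, the GC box GGGCGG and the TATA box TATAAA. The E-box contains ACGTG on both strands, so each E-box also counts as 2 matches of that core. Across all 35116 RefSeq promoter windows, which cover 250 bases before to 50 after the start, ACGTG was found in 18.5%, GCGTG in 32.2%, CACGTG in 6.34%, GGGCGG in 42.6% and TATAAA in 10.7%.
GABRP, chr5:170783475-170783690, plus strand: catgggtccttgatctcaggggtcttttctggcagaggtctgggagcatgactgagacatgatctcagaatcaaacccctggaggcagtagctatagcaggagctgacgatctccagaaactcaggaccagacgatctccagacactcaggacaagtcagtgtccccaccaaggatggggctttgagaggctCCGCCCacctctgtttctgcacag
AQP3, chr9:33447634-33447843, minus strand: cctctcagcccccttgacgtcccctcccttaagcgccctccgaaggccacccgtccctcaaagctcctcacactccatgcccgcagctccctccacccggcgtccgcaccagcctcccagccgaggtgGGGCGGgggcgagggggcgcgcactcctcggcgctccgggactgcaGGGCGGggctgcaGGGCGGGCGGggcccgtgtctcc
SLC12A2, chr5:128083516-128083765, plus strand: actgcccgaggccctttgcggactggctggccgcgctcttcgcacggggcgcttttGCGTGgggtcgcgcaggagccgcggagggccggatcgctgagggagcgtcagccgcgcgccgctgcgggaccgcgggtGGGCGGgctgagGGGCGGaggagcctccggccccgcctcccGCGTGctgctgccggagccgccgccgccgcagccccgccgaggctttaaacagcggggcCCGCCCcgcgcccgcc
SLC4A2, chr7:151062297-151062546, plus strand: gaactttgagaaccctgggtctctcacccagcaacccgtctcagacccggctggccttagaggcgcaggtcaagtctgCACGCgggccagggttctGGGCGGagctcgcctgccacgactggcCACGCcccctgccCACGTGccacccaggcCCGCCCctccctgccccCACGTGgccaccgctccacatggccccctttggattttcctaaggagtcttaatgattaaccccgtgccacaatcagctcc
The GABRP stretch lies before a RefSeq start site but inside the annotated gene, which runs from 170763350 to 170814047. It held 1 GC box and none of the other motifs. The AQP3 stretch held 4 GC boxes, of which 2 overlap, and its window also held a TATA box 32 bases before the start site, inside an annotated exon. The SLC12A2 stretch held 2 GCGTG cores and 3 GC boxes. The SLC4A2 stretch, before 1 of 4 RefSeq start sites of that gene, lies inside the annotated gene, which begins at 151057210. It held 2 E-boxes at 114 and 81 bases before the start, 2 GCGTG cores and 2 GC boxes. It was chosen because no base of it lies in an annotated exon. The windows of the start sites at 151058200 and 151059589, nearer the gene's annotated start, held no E-box. A match is a description of letters and says nothing of whether a factor binds there.

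Per gene length, the 10 genes spanned a wide range of levels in FPKM, the authors' values of read fragments scaled to gene length and library size. In CF cells in high glucose the order was LRRC8A (42.7 ± 1.87 FPKM, SD, n = 6), ANO6 (41.5 ± 4.82), SLC4A2 (36.9 ± 1.23), CLCN3 (13.1 ± 0.387), GABRP (12.6 ± 2.60), AQP3 (5.48 ± 0.847), ANO1 (4.64 ± 0.345), SLC26A6 (3.71 ± 0.680), SLC12A2 (1.38 ± 0.0576) and CLCN2 (1.29 ± 0.117). In that group the ranges of neighbours in the order overlapped except between SLC4A2 and CLCN3, between GABRP and AQP3, and between SLC26A6 and SLC12A2. GABRP had rank 5 of 10 in CF cells under both glucose levels, rank 9 in WT cells under both, at 1.57 ± 0.147 FPKM (n = 5) in high and 1.51 ± 0.249 FPKM (n = 6) in normal glucose, and last in WT cells that were not polarized (0.472 ± 0.108 FPKM, n = 3). In those cells AQP3, at 12.1 ± 0.739 FPKM, overlapped with CLCN3, at 12.3 ± 0.969 FPKM. CFTR itself lay at 62.4 to 93.2 FPKM, above each of the 10 genes in every library.

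**Figure D1:**
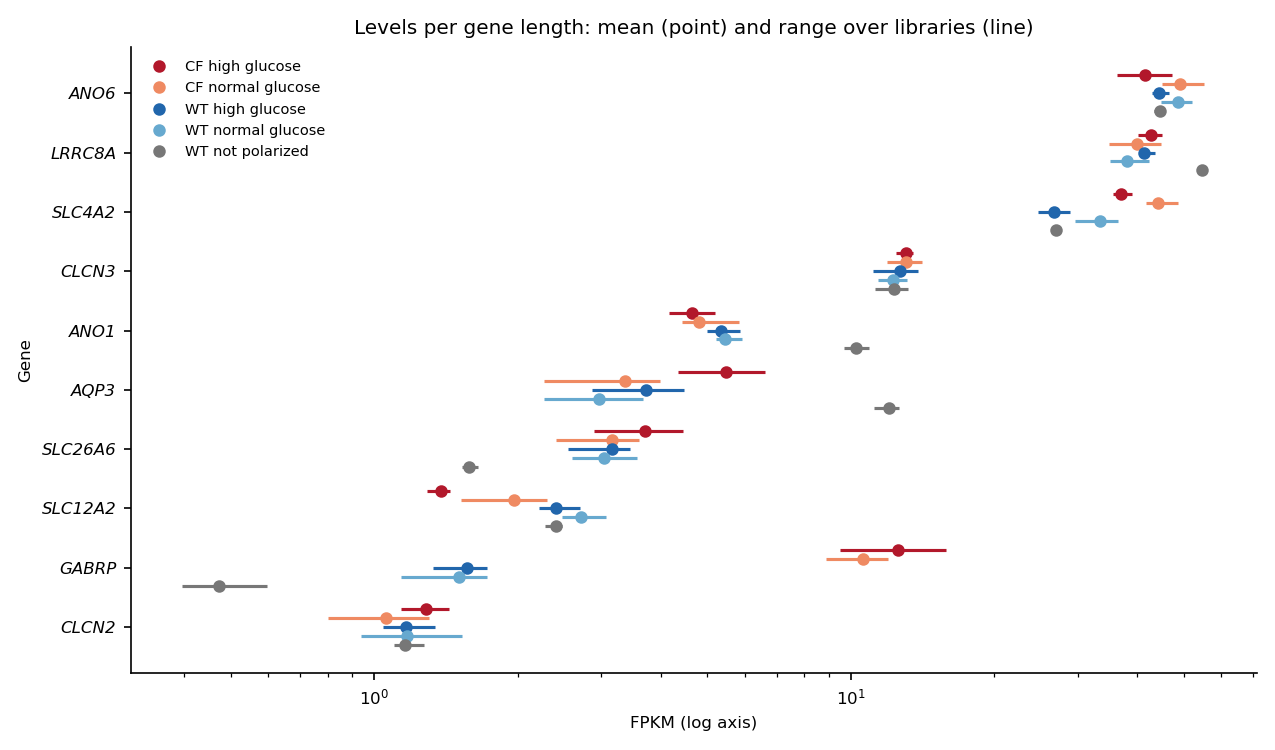
Level of each gene in FPKM on a log axis, 1 line per group: points are means, lines span the lowest to highest library, and groups run from CF high glucose (top) to WT not polarized (bottom). GABRP stands between 8.88 and 15.9 FPKM in CF cells and between 1.14 and 1.73 FPKM in polarized WT cells, while CLCN3 stays between 11.2 and 14.1 FPKM in all 26 libraries.

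The depth was ample for all but the rarest transcripts. The lowest count of any of the 10 genes in a library was 33, for GABRP in WT cells that were not polarized, and the highest was 8358, for ANO6. Over the 26 libraries the highest CPM was 39.7 times the lowest for GABRP, 5.60 times for AQP3, 2.88 times for SLC26A6, 2.65 times for ANO1 and 2.39 times for SLC12A2. CLCN3 varied least, by 1.25 times.

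GABRP, the pi subunit of the GABA-A receptor family and so part of a chloride channel opened by the transmitter GABA, was the member that differed most between CF and WT cells. It had 44.2, 59.8 and 73.6 CPM (lowest, median, highest) in the 6 CF libraries in high glucose and 7.51, 6.19, 7.34, 7.97 and 7.55 CPM in the 5 WT libraries. In normal glucose it had 40.8, 50.1 and 55.5 CPM in CF cells and 5.32, 7.37 and 8.09 CPM in WT cells. All 12 CF libraries lay above all 11 polarized WT libraries, with no overlap. Fitted across all genes with edgeR's quasi-likelihood test and Benjamini-Hochberg adjustment, GABRP was 7.95-fold higher in CF than in WT cells in high glucose (log2 fold change 2.99 ± 0.14 SE, adjusted p = 1.278e-14) and 6.99-fold higher in normal glucose (2.81 ± 0.13, adjusted p = 9.457e-15). In bulk RNA more RNA per cell and more expressing cells cannot be told apart.

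Within CF cells GABRP showed the number sets plainly. Its mean was 48.2 CPM in libraries 1 to 3 and 68.6 CPM in libraries 4 to 6 in high glucose, and 43.9 and 54.4 CPM in normal glucose. The CF to WT difference was present in both sets, at log2 2.78 (libraries 1 to 3) and 3.12 (libraries 4 to 6) in high glucose, and at 2.59 and 3.01 in normal glucose. The glucose difference within CF cells was 0.25 ± 0.11 and missed the threshold (adjusted p = 0.193). It passed with a batch term for the number sets (0.24, adjusted p = 0.0312) and in libraries 4 to 6 alone (0.33, adjusted p = 0.0035), but not in libraries 1 to 3 alone (0.13, adjusted p = 0.4662). In WT cells that difference was 0.07 ± 0.14 (adjusted p = 0.897).

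The partners of GABRP were nearly all unread. Of 15 other GABA-A receptor subunit genes, 12, among them every alpha, beta and gamma subunit on the list, were listed at 0 counts in all 26 libraries. The delta subunit GABRD was the only other subunit tested and was low, at 4.08 ± 0.82 CPM in CF cells and 2.63 ± 0.65 CPM in WT cells in high glucose (log2 0.65 ± 0.18, adjusted p = 0.0093). In normal glucose it had 4.14 ± 0.56 CPM in CF cells and 3.04 ± 0.69 CPM in WT cells (0.45 ± 0.17, adjusted p = 0.0488). GABRE and GABRQ had 8 and 12 reads over all libraries.

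**Figure D2:**
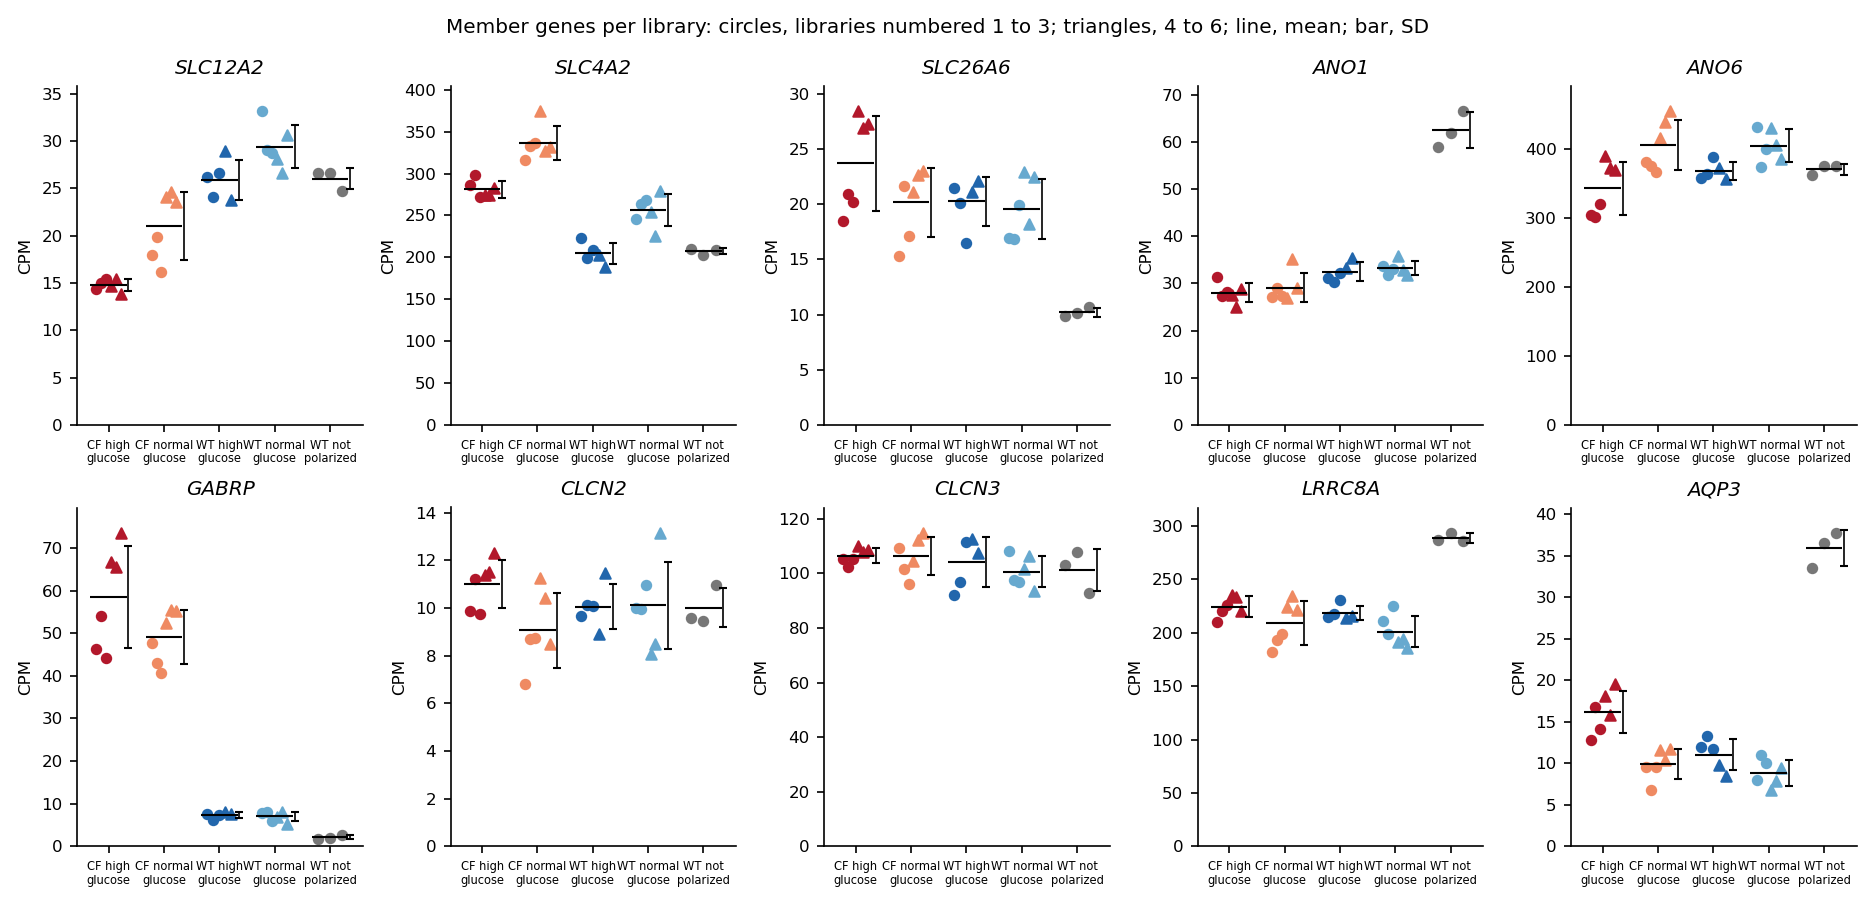
CPM of each gene in each library, by group from CF high glucose (left) to WT not polarized (right); circles are libraries numbered 1 to 3, triangles those numbered 4 to 6, the line is the mean and the bar its SD. Each panel has its own axis from 0. CF libraries of GABRP lie between 40.8 and 73.6 CPM, and those of SLC12A2 in high glucose between 13.9 and 15.5 CPM, below all other libraries.

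SLC12A2, the sodium, potassium and chloride cotransporter NKCC1 that loads airway cells with chloride, was lowest in CF cells in high glucose. It had 13.9, 14.8 and 15.5 CPM (lowest, median, highest) in CF cells in high glucose and 16.1, 21.7 and 24.6 CPM in CF cells in normal glucose. In WT cells it had 26.2, 24.03, 26.6, 28.9 and 23.8 CPM in high glucose and 26.6, 28.9 and 33.2 CPM in normal glucose. All 6 CF libraries in high glucose lay below all 6 in normal glucose, and CF lay below WT at each glucose level, without overlap in either comparison. In CF cells SLC12A2 fell in high glucose, to 0.70 of its level in normal glucose (log2 -0.51 ± 0.09, adjusted p = 0.000486). In WT cells the difference was -0.18 ± 0.09 (adjusted p = 0.349). CF cells had 0.57 of the WT level in high glucose (-0.81 ± 0.09, adjusted p = 1.295e-07) and 0.72 of it in normal glucose (-0.48 ± 0.09, adjusted p = 0.000102).

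The size of the SLC12A2 glucose difference in CF cells depended on the number set. CF libraries in high glucose had 14.9 CPM in set 1 to 3 and 14.6 CPM in set 4 to 6, whereas CF libraries in normal glucose had 18.0 and 24.1 CPM. The difference was -0.27 (adjusted p = 0.109) in libraries 1 to 3 alone and -0.73 (adjusted p = 5.564e-07) in libraries 4 to 6 alone. The response of CF cells minus that of WT cells was -0.33 ± 0.12 (adjusted p = 0.527, unadjusted p = 0.014). In libraries 1 to 3 it was -0.04 (adjusted p = 0.960), and in libraries 4 to 6 it was -0.63 (adjusted p = 0.0055). The CF to WT difference held in both sets, at -0.78 and -0.87 in high and -0.74 and -0.24 in normal glucose.

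AQP3, a basolateral channel for water and glycerol found in airway basal cells, was the only one of the 10 genes called higher in high glucose. In CF cells it had 12.8, 16.3 and 19.6 CPM (lowest, median, highest) in high glucose and 6.79, 9.98 and 11.8 CPM in normal glucose. The groups did not overlap. The rise was 1.64-fold (log2 0.71 ± 0.14, adjusted p = 0.0012), and it was 0.76 in libraries 1 to 3 and 0.67 in libraries 4 to 6, called in each. In WT cells AQP3 had 12.0, 13.3, 11.8, 9.77 and 8.498 CPM in high glucose and 6.76, 8.78 and 11.0 CPM in normal glucose. Those groups overlapped, and the log2 difference of 0.32 ± 0.14 missed the threshold (adjusted p = 0.275). The 2 responses differed by 0.39 ± 0.20, which also missed it (adjusted p = 0.755).

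Between lines AQP3 differed in high glucose, by log2 0.56 ± 0.14 (1.47-fold higher in CF, adjusted p = 0.0049), with libraries that overlapped. That difference was 0.24 (adjusted p = 0.252) in libraries 1 to 3 alone and 0.95 (adjusted p = 8.326e-07) in libraries 4 to 6 alone. In normal glucose it was 0.16 ± 0.14 (adjusted p = 0.452) over all libraries, but -0.16 (adjusted p = 0.492) in set 1 to 3 and 0.48 (adjusted p = 0.0043) in set 4 to 6. The mean in WT cells was lower in set 4 to 6 than in set 1 to 3, at 9.14 and 12.4 CPM in high glucose and 8.04 and 9.71 CPM in normal glucose. The mean in CF cells was higher, at 17.9 and 14.6 CPM in high glucose and 11.3 and 8.63 CPM in normal glucose.

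SLC4A2, the anion exchanger AE2, which swaps intracellular bicarbonate for chloride at the basolateral membrane, was the only one of the 10 genes called with glucose in both lines. In CF cells it had 271.8, 278.8 and 298.9 CPM (lowest, median, highest) in high glucose and 315.8, 332.0 and 374.6 CPM in normal glucose. In WT cells it had 223.3, 199.8, 209.3, 202.8 and 188.7 CPM in high glucose and 225.6, 258.6 and 279.3 CPM in normal glucose. High and normal glucose did not overlap in either line. SLC4A2 fell by 0.26 ± 0.05 in CF cells (log2, to 0.84 of normal, adjusted p = 0.0031) and by 0.32 ± 0.06 in WT cells (to 0.80, adjusted p = 0.0018), and these differed by 0.06 ± 0.08 (adjusted p = 0.997). It fell in both number sets of both lines, by 0.21 and 0.31 in CF cells and by 0.29 and 0.35 in WT cells.

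SLC4A2 was also higher in CF than in WT cells, by log2 0.46 ± 0.06 in high glucose (1.38-fold, adjusted p = 6.788e-07) and 0.40 ± 0.05 in normal glucose (1.32-fold, adjusted p = 2.482e-06). The gene lies near the end of chromosome 7 (151057210 to 151076527, GRCh38), and its neighbours were higher in CF cells with it. Of 50 tested neighbours, the 25 nearest on each side, 35 were called higher and 0 lower in high glucose, with a median log2 fold change of 0.54, and 36 and 0 in normal glucose, with a median of 0.59. ANO1 on chromosome 11 had neighbours with medians of -0.35 and -0.30, of which 19 and 20 were called lower and 7 and 3 higher. Over all tested genes 9.35% were called higher and 10.6% lower in high glucose, and 11.4% and 13.0% in normal glucose. Around the other 8 genes the medians of neighbours lay within 0.14 of 0. They were furthest from 0 around SLC12A2, at -0.14 in high and -0.12 in normal glucose. There 10 and 9 neighbours were called lower and 4 and 4 higher. The part of the neighbourhood in the line differences was not tested for any of the 10 genes. Exons of SLC4A2 share 4.36% of their bases with CDK5 and 9.41% with AC010973.2 on the opposite strand, and with the strand setting not given their reads cannot be told apart there.

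**Figure D3:**
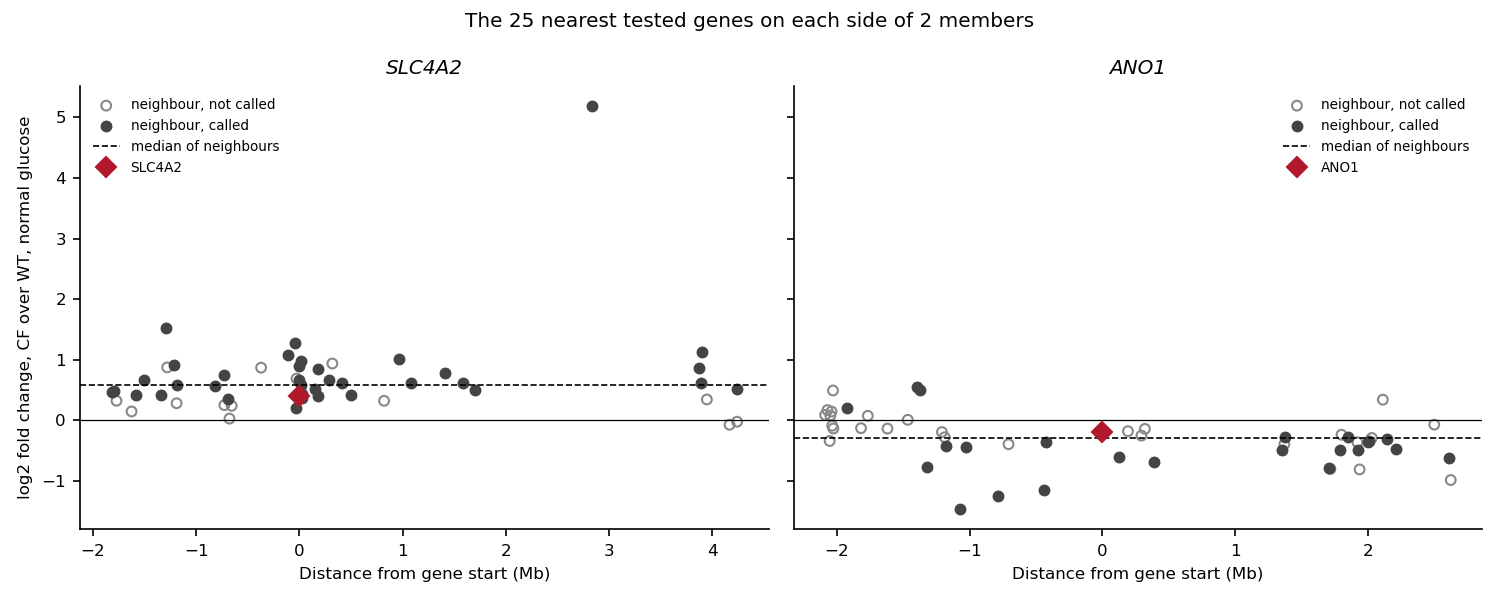
Log2 fold change of CF over WT cells in normal glucose for the 25 nearest tested genes on each side of SLC4A2 (left) and ANO1 (right), against distance from the gene's start in Mb. Diamonds are the named genes with their SE, filled circles are neighbours called at an adjusted p under 0.05, and the dashed line is the neighbours' median, 0.59 for SLC4A2 and -0.30 for ANO1.

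SLC26A6, an apical exchanger of chloride, bicarbonate and oxalate, did not pass the threshold in any glucose or line comparison over all libraries without a batch term. It had 18.5, 23.9 and 28.5 CPM (lowest, median, highest) in CF cells in high glucose and 15.3, 21.4 and 23.01 CPM in normal glucose, a difference of log2 0.24 ± 0.12 (adjusted p = 0.247). The high glucose libraries fell into their number sets, with means of 19.9 CPM in libraries 1 to 3 and 27.6 CPM in libraries 4 to 6. With a batch term the difference was 0.23 (adjusted p = 0.0436), and in libraries 4 to 6 alone it was 0.30 (adjusted p = 0.0222), against 0.14 (adjusted p = 0.560) in libraries 1 to 3 alone. In WT cells the glucose difference was 0.05 ± 0.12 (adjusted p = 0.905). Between lines in high glucose it was called higher in CF cells in libraries 4 to 6 alone (0.33, adjusted p = 0.0127), against 0.04 (adjusted p = 0.858) in libraries 1 to 3 alone.

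ANO1, the calcium-activated chloride channel TMEM16A, was called slightly lower in CF than in WT cells. It had 25.1, 27.9 and 31.3 CPM (lowest, median, highest) in CF cells and 31.2, 30.3, 32.3, 33.2 and 35.4 CPM in WT cells in high glucose. In normal glucose it had 27.0, 28.2 and 35.2 CPM in CF cells and 31.9, 32.99 and 35.9 CPM in WT cells. The lines overlapped in both media. The differences were -0.21 ± 0.07 (adjusted p = 0.0357) and -0.19 ± 0.07 (adjusted p = 0.0458). These calls changed with the setting. Without any low-count filter the adjusted p was 0.159 in both media, and the size moved with the number set. In high glucose the difference was -0.11 (adjusted p = 0.393) in libraries 1 to 3 alone and -0.35 (adjusted p = 0.0058) in libraries 4 to 6 alone. In normal glucose it was -0.23 (adjusted p = 0.0503) and -0.14 (adjusted p = 0.267). The high glucose call was lost without CF library 2, 4 or 5 or WT library 3, 4 or 5 of that medium (adjusted p of 0.0566 to 0.115). The normal glucose call was lost when any 1 of 21 of the 23 libraries was left out (adjusted p of 0.0522 to 0.132), and was kept without CF high glucose library 1 or CF normal glucose library 5.

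ANO6, the calcium-activated lipid scramblase and ion channel TMEM16F, was lower in high glucose in CF cells. It had 301.9, 344.9 and 390.7 CPM (lowest, median, highest) in high glucose and 368.0, 399.2 and 455.7 CPM in normal glucose, which overlapped. The difference was log2 -0.24 ± 0.07 (adjusted p = 0.0209), with -0.29 in libraries 1 to 3 and -0.21 in libraries 4 to 6, called in each. It lost its call when CF libraries were fitted on their own (-0.25, adjusted p = 0.0792) and without CF high glucose library 1, 2 or 3 or CF normal glucose library 5 or 6 (adjusted p of 0.0516 to 0.0621). In WT cells the difference was -0.13 ± 0.07 (adjusted p = 0.373). Between lines in high glucose ANO6 was not called over all libraries (-0.10 ± 0.07, adjusted p = 0.348), but was called lower in CF cells in libraries 1 to 3 alone (-0.26, adjusted p = 0.0033) and not in libraries 4 to 6 alone (0.03, adjusted p = 0.811).

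LRRC8A, the subunit that every volume-regulated anion channel needs, showed no called glucose or line difference over all libraries. In CF cells it averaged 224.2 ± 9.52 CPM in high and 209.0 ± 20.5 CPM in normal glucose (log2 0.10 ± 0.06, adjusted p = 0.323). In WT cells it averaged 218.4 ± 6.81 CPM (n = 5) in high and 200.9 ± 14.6 CPM in normal glucose (0.12 ± 0.06, adjusted p = 0.331). In normal glucose the direction of CF against WT cells turned between the number sets. The means were 191.4 CPM in CF and 211.7 CPM in WT libraries 1 to 3 (log2 -0.14, adjusted p = 0.137), and 226.7 CPM in CF and 190.2 CPM in WT libraries 4 to 6, where LRRC8A was called higher (0.25, adjusted p = 0.000415). CLCN3, an endosomal exchanger of chloride for protons, averaged 106.5 ± 2.78 CPM in CF cells in high and 106.4 ± 7.02 CPM in normal glucose. The interval of 1.96 SE on each side of its log2 difference ran from -0.11 to 0.11. CLCN2, a chloride channel opened by hyperpolarization and by chloride, averaged 11.0 ± 1.00 CPM in high and 9.06 ± 1.56 CPM in normal glucose in CF cells (0.28 ± 0.12, adjusted p = 0.151). Exons of CLCN2 share 24.7% of their bases with FAM131A on the opposite strand, which had a mean of 26.9 CPM, so its reads may include some of that gene. CLCN2 and CLCN3 were called in none of the comparisons made here.

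Counted together, the 10 genes can be set beside all genes tested. They and the list of their relatives were chosen with earlier results of these data known. The shares called are therefore descriptions and do not test the lists. In high against normal glucose the edgeR test called 4 of 10 in CF cells, AQP3 higher and 3 lower, where it called 8.41% of 16338 genes (4.27% higher and 4.14% lower). In WT cells it called 1 of 10, lower, and 2.96% of all genes (1.49% higher and 1.47% lower). The median absolute log2 fold change of the 10 genes was 0.25 in CF and 0.10 in WT cells, against 0.13 and 0.11 over all tested genes. Between lines 5 of 10 were called in high glucose (3 higher and 2 lower in CF cells), where 19.9% of all genes were (9.35% higher and 10.6% lower), and 4 of 10 in normal glucose (2 and 2), where 24.4% of all genes were (11.4% higher and 13.0% lower). For the difference between the glucose responses of the lines 0 of 10 were called by edgeR, with 1 (SLC12A2) at an unadjusted p under 0.05 and 0 by DESeq2. Over all genes edgeR called 0.0367% and DESeq2 0.475%. Several comparisons share libraries, such as those of WT cells in normal glucose, and are not independent.

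**Figure D4:**
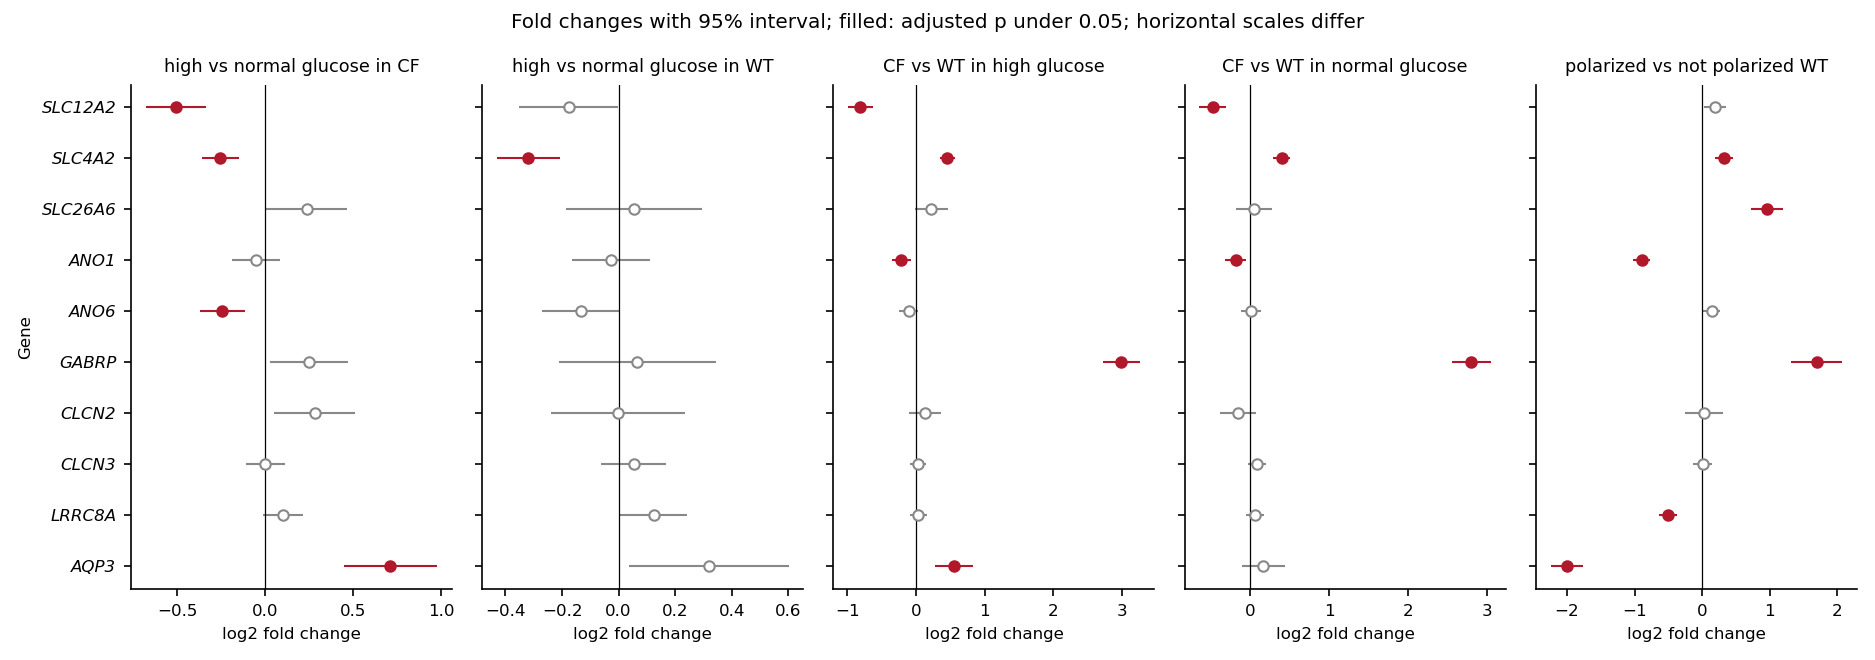
Log2 fold change of each gene in 5 comparisons, first-named group over the second. Bars span 1.96 SE on each side, a normal 95% interval that is slightly narrower than the test's own. Filled points had an adjusted p under 0.05, and the horizontal scales differ between panels. In the left panel AQP3 lies at 0.71 and SLC12A2 at -0.51; in the third GABRP lies at 2.99, and in the right panel AQP3 lies at -2.004.

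Polarization was examined in WT cells in normal glucose, with 6 polarized libraries against 3 that were not, in a fit of their own. The latter are titled Standard. Polarization cannot be told apart from any other difference in how those libraries were grown or processed. Here 6 of 10 genes were called, 3 higher and 3 lower, where 50.0% of 16105 genes were called, so the share of called members is near that of all genes. AQP3 differed most. It had 6.76, 8.78 and 11.0 CPM (lowest, median, highest) in polarized cells and 33.6, 36.6 and 37.8 CPM in cells that were not polarized. It was lower in polarized cells at 0.25 of the other level (log2 -2.004 ± 0.12, adjusted p = 1.332e-08).

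ANO1 and LRRC8A were lower in polarized cells too. ANO1 had 31.9, 32.99 and 35.9 CPM in polarized cells and 59.0, 62.0 and 66.6 CPM in cells that were not (-0.90 ± 0.07, adjusted p = 1.219e-07). LRRC8A had 185.5, 196.4 and 225.2 CPM in polarized cells and 286.6, 293.5 and 285.5 CPM in the others (-0.51 ± 0.06, adjusted p = 2.197e-05). Neither gene's groups overlapped.

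GABRP, SLC26A6 and SLC4A2 were higher in polarized cells. GABRP had 5.32, 7.37 and 8.09 CPM in polarized cells and 1.85, 1.98 and 2.79 CPM in the others (3.23-fold, log2 1.69 ± 0.20, adjusted p = 8.336e-06). SLC26A6 had 16.9, 19.1 and 22.9 CPM in polarized cells and 9.88, 10.1 and 10.7 CPM in the others (1.94-fold, 0.96 ± 0.12, adjusted p = 1.924e-05). These groups did not overlap. SLC4A2 had 225.6, 258.6 and 279.3 CPM in polarized cells and 210.4, 203.0 and 208.8 CPM in the others (1.25-fold, 0.32 ± 0.07, adjusted p = 0.0017), also without overlap. SLC12A2 differed by 0.19 ± 0.08 (adjusted p = 0.0681) and ANO6 by 0.14 ± 0.06 (adjusted p = 0.0740), both short of the threshold. The 3 libraries that were not polarized carry numbers 1 to 3, but no label ties these to the polarized libraries' numbers. Against polarized libraries 1 to 3 alone the log2 values were -1.88 for AQP3, -0.92 for ANO1 and -0.44 for LRRC8A. They were 1.74 for GABRP, 0.82 for SLC26A6 and 0.33 for SLC4A2, and every value was called.

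Relatives of the 10 genes were followed in 99 genes of 10 groups, of which 51 were tested in each fit. With glucose, 5 of 51 were called in each line, where 8.41% of all genes were in CF cells and 2.96% in WT cells, so the share in CF cells is near that of all genes. LRRC8B and LRRC8D, which pair with LRRC8A in volume-regulated channels, rose in both lines. LRRC8D averaged 42.0 ± 2.88 CPM in high and 30.0 ± 4.71 CPM in normal glucose in CF cells (log2 0.48 ± 0.08, adjusted p = 0.000335), and 43.5 ± 2.51 and 33.5 ± 1.30 CPM in WT cells (0.38 ± 0.08, adjusted p = 0.0106). LRRC8B rose by 0.35 in each line. SLC4A7, a sodium bicarbonate cotransporter, rose by 0.28 in CF cells and 0.35 in WT cells. SLC26A11 rose (0.28) and BEST1, a calcium-activated anion channel, fell (-0.61) in CF cells, while ANO10 rose (0.32) and SLC26A1, a sulfate exchanger, fell (-0.52) in WT cells. For the difference in glucose response 0 of 51 were called by edgeR, with 5 at an unadjusted p under 0.05. Values by number set are not given for relatives, and fewer than 5 were called in WT cells under some settings listed below.

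Between lines 15 of 51 relatives were called in high glucose (5 higher and 10 lower in CF cells) and 18 in normal glucose (9 and 9), where 19.9% and 24.4% of all genes were called. SLC12A8, a relative of SLC12A2, stood highest, at 10.5 ± 0.950 CPM in CF cells and 1.82 ± 0.286 CPM in WT cells in high glucose (log2 2.53 ± 0.16, adjusted p = 3.146e-12), and at 9.13 ± 1.24 and 1.46 ± 0.479 CPM in normal glucose (2.65 ± 0.15, adjusted p = 5.895e-13). CLCA2, a regulator of chloride conductance, was higher in CF cells by 2.22 in high and 1.83 in normal glucose. CLCN4, an endosomal relative of CLCN3, was higher by 0.60 in high and 0.47 in normal glucose. CLCN1 (1.15) and SLC4A8 (0.73) were called higher in normal glucose only. The means of CLCN1 were 2.29 and 1.04 CPM and those of SLC4A8 1.79 and 1.065 CPM in CF and WT cells. ANO2, a calcium-activated chloride channel of sensory cells, was lower in CF cells, at log2 -2.337 in high and -1.960 in normal glucose. Its means were low, at 0.297 CPM in CF and 1.53 CPM in WT cells in high and 0.415 and 1.64 CPM in normal glucose. LRRC8C was lower, at -1.005 and -1.06, and WNK3, a kinase that regulates chloride cotransporters, was lower at -1.48 and -1.36. WNK3 means were low too, at 0.530 and 1.49 CPM in CF and WT cells in high and 0.482 and 1.26 CPM in normal glucose. CLIC6 was lower in high glucose (-1.44, with means of 0.394 CPM in CF and 1.09 CPM in WT cells).

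With polarization 28 of 51 relatives were called, 16 higher and 12 lower, a share near the 50.0% of all genes. SLC12A4, a potassium and chloride cotransporter that works against SLC12A2, had 268.9 ± 17.2 CPM in polarized cells and 124.2 ± 4.32 CPM in the others (log2 1.13 ± 0.07, adjusted p = 1.421e-08). ANO9 (1.18), GABRD (1.00) and CLCA2 (0.93) were also higher. CLIC6 (-1.43), BEST1 (-1.40), SLC4A8 (-1.04) and CLCN4 (-0.99) were lower. CLIC6 and SLC4A8 were scarce, with means of 0.584 and 1.065 CPM in polarized cells and 1.62 and 2.24 CPM in the others. Other aquaporins were scarce: of 13, 4 had 0 reads in all libraries and 2 were tested. Their highest mean was 0.592 FPKM in polarized and 0.76 FPKM in not polarized WT cells in normal glucose.

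Marker levels of other cell types differed between some of the groups. The 3 airway basal markers summed to 59.7 to 105 CPM in CF cells in high glucose and 49.9 to 101 CPM in CF cells in normal glucose, against 39.3 to 49.0 and 37.9 to 55.7 CPM in WT cells, with mean TP63 under 1 CPM in each group. The sum was mostly KRT5, and KRT14 went the other way, with means of 1.67 and 1.37 CPM in CF cells and 4.26 and 3.37 CPM in WT cells in high and normal glucose. The 3 ionocyte markers summed to 4.4 to 8.43 and 3.73 to 6.14 CPM in CF cells, against 6.26 to 12.1 and 9.05 to 14 CPM in WT cells, nearly all of it FOXI1. ASCL3 had 2 reads and ATP6V1G3 had 1 read in all. Fibroblast markers (4) summed to 15.3 to 29.5 CPM in CF cells and 26.6 to 43.2 CPM in polarized WT cells, with only COL1A1 above 1 CPM, and endothelial markers (3) to 18.9 to 27.3 and 11.5 to 16.1 CPM, with only CDH5 above it. In polarized against not polarized WT cells basal markers summed to 37.9 to 55.7 and 24.6 to 28.8 CPM. Fibroblast markers summed to 26.9 to 43.2 and 13.0 to 14.1 CPM, and the 3 ciliated markers to 13.6 to 14.9 and 6.05 to 7.37 CPM. The ciliated sum lay in DNAH5 and PIFO, while FOXJ1, the regulator of cilia formation, went the other way, with means of 0.473 CPM in polarized and 1.64 CPM in not polarized cells. The part of these cell type markers in the results was not tested.

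The patterns of the 10 genes over the 26 libraries were compared with those of 10709 protein-coding genes by Pearson r of log2(CPM + 0.5). The libraries share group, line and number set, so these values describe patterns only. GABRP was most like TGFBI (r = 0.988) and PDIA3 (0.978), ANO1 like NET1 (0.966) and SSRP1 (0.963), and SLC26A6 like NFATC4 (0.952) and MTMR11 (0.948). SLC12A2 was most like THBS1 (0.940) and AP5B1 (0.926), SLC4A2 like KRT19 (0.936) and ARHGAP27 (0.928), LRRC8A like PGRMC2 (0.930) and FXYD5 (0.927), and AQP3 like USP39 (0.926) and C6orf48 (0.925). ANO6 was most like WWC2 (0.871), CLCN2 like ARHGEF19 (0.725) and CLCN3 like UBXN7 (0.688). Among the members themselves the highest value was 0.879, between LRRC8A and AQP3, and the lowest was -0.802, between ANO1 and SLC26A6.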

How the data were processed

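Per the labels' protocols, each sample pooled 2 Transwells of 250000 plated cells, and poly-T beads purified its messenger RNA. Per the submitters' processing notes, HISAT2 was the aligner and hg38 the build. Its version, how reads were counted and whether by strand are not given in the sources used. The authors deposited raw counts per gene and FPKM values scaled to gene length and library total, for 58735 genes whose identifiers and positions matched GENCODE release 29; gene lengths are the deposited ones. Within a library, FPKM was the count divided by length and total, up to a factor of 0.945 to 1.07.

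The tests used edgeR 4.0.16 in R 4.3.3, with TMM, filterByExpr by group (minimum count 10, minimum total 15), robust quasi-likelihood fits and Benjamini-Hochberg adjustment over all tested genes, and a gene was called at an adjusted p under 0.05. A fit of 4 group means held the 23 glucose libraries, with 19 residual degrees of freedom (16338 genes), and polarization had its own fit of 9 libraries (16105 genes). Printed CPM are TMM-scaled over all 26 libraries, so depth differences between 14658319 and 20413839 counts are removed. Fits were tested on simulated counts. No library was a duplicate of another in its group: the lowest chi-square per degree of freedom between libraries of a group was 1.95. Libraries of different groups were not compared in this way. Alternatives were DESeq2 1.42.0, other size factors and filters, limma 3.58.1 on log2(FPKM + 1) and log2(FPKM + 0.1), a replicate block, a batch term or number sets alone, and each library left out. Replicate numbers were not taken as pairs.

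The genes, lists, markers and tests were chosen with earlier results of these data known. The rule for naming relatives was a call with at least 1 CPM in a group, at most the 4 largest in each direction; CFTR and all 10 genes were always named, with the 2 most similar protein-coding genes above 5 CPM. GABRE and GABRQ, the shared-exon genes, the markers and the normal glucose line values of CLCN4 and GABRD were given outside that rule. A relative that this rule named in normal glucose is not reported here.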

Additional observations from a re-analysis of the deposited data

Results flagged for a closer look

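Of 40 groups of 4 to 6 libraries tested among the 10 genes, 3 held a library whose gap to the nearest other library was large for the group's range by Dixon's criterion, which chance gives in about 1 in 20 groups. ANO1 had 35.16 CPM in CF normal glucose library 5, above the other 5 libraries of that group. SLC4A2 had 374.6 CPM in CF normal glucose library 4, also the highest of its group. LRRC8A had 230.4 CPM in WT high glucose library 3, above the other 4. The calls of SLC4A2 were kept without its library.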

How the results depend on the processing

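Over the 10 genes and the alternatives run, 0 called values changed sign. Under alternatives other than leaving out a library, 666 values kept their side of the threshold, 12 gained a call and 12 lost one; with 1 library left out, 1206 kept it, 2 gained and 32 lost one, most of them for ANO1. The number of members called stayed within 1.5 times of that reported, except for the difference between glucose responses, where libraries 4 to 6 alone gave 1 (SLC12A2) in place of 0; the cause was not tested. Counts over all genes moved more. For glucose in WT cells 484 genes became 809 with DESeq2, 319 without a filter, 1092 with the replicate block, 1418 with the batch term, 823 in libraries 4 to 6 alone, 281 without WT high glucose library 3 and 309 without WT normal glucose library 6. In CF cells 1374 became 891, 2561, 2812 and 2330 without a filter, with the block, with the batch term and in libraries 4 to 6 alone. For the difference in response 6 became 67 with DESeq2, 73 with the block, 146 with the batch term, 1 in libraries 1 to 3, 387 in libraries 4 to 6 and 0 to 19 with 1 library left out. Between lines in high glucose 3253 became 4973 with the batch term. Of 51 relatives, 5 called with glucose in WT cells became 2 to 3 without a filter, in libraries 1 to 3 alone and without WT high glucose library 3 or WT normal glucose library 1, 4 or 6. In CF cells 5 became 10 with the block, with the batch term and in libraries 4 to 6 alone, and 3 without CF high glucose library 4; for the difference in response those 3 settings gave 1 in place of 0. The replicate block added GABRP in CF cells (log2 0.24, adjusted p = 0.0465) and SLC12A2 with polarization (0.23, adjusted p = 0.0268), and changed no other member's call. Same-numbered libraries correlated with a mean r of 0.202 in WT and 0.233 in CF cells with glucose, and of -0.00685 with polarization, and 1 of 5, 2 of 6 and 0 of 3 libraries correlated best with their own number. SLC12A2 (0.22) in libraries 1 to 3 alone or without WT normal glucose library 5, and ANO6 (0.17) without library 2, gained a polarization call. LRRC8A was called higher in CF cells in normal glucose in libraries 4 to 6 alone (0.25), ANO6 lower in high glucose in libraries 1 to 3 alone (-0.26), and SLC26A6 higher there in libraries 4 to 6 alone (0.33). Polarization has no fit for libraries 4 to 6 or a batch term, since only numbers 1 to 3 were not polarized.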
